A study of Mus musculus with 24 samples.

Results

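Klf6 and 9 immediate early genes, Fos, Jun, Junb, Atf3, Egr1, Myc, Ier2, Ier3 and Btg2, were followed in mouse liver, 10 genes of the 14995 in the deposited tables. They were taken by gene symbol from a list proposed with the group differences of these same libraries known, so the members were selected on these values and their group differences are given here as a description. All 10 had enough counts to be among the 13121 genes tested. The libraries came from 3 groups of 8, all collected 20 weeks after surgery. RYGB mice had Roux-en-Y gastric bypass, an operation that leaves a small stomach pouch joined directly to the jejunum. WM mice had their calories restricted until they weighed as much as the RYGB mice. Sham mice had a sham operation. The labels give no strain, sex, age, diet or allele, and do not say whether each library is a separate mouse or whether WM mice were also operated on. The p-values therefore measure the spread between libraries.

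Immediate early genes are switched on within minutes of a growth factor, cytokine or stress signal, from transcription factors already present in the cell, and their messengers are short-lived. Fos and Jun proteins pair to form the AP-1 transcription factor, Atf3 is a stress-induced partner of the same bZIP class, and Egr1 and Klf6 are zinc finger factors. In liver these genes are best known for their burst in the first hours after partial hepatectomy or injury, and a frozen liver also records how the tissue was handled before freezing.

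The library kit primes at the 3′ ends of messengers, so that 1 read stands for about 1 transcript, and a level here is in CPM, the counts of a gene over those of its library on the usual scale, with library sizes scaled by TMM. Library totals ran from 13659647 to 22766612 counts. Hepatocyte transcripts dominated: Albumin (Alb) had a median of 51997 CPM over the libraries. Transcripts of pancreatic acinar cells, summed over 15 genes, reached 3160 CPM in RYGB 18, 3292 CPM in RYGB 19 and 1438 CPM in Sham 17, and at most 187.7 CPM in the other 21 libraries. Group differences of members whose call changed without these 3 libraries are given with and without them. Correlations are given with these libraries included.

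The promoters of the 4 members that were lower in both groups than in Sham are shown first, with that of Fos for comparison, because Jun, Atf3 and Fos proteins bind the cyclic AMP response element (CRE) and related sites. Each sequence is the 250 bases before the RefSeq start (GRCm38.p6), 5′ to 3′ on the gene's own strand. Capitals mark a CRE with any middle base (TGACNTCA), the half-site TGACGT or its reverse complement ACGTCA, and in Fos also a TATA box (TATAAA).
Klf6: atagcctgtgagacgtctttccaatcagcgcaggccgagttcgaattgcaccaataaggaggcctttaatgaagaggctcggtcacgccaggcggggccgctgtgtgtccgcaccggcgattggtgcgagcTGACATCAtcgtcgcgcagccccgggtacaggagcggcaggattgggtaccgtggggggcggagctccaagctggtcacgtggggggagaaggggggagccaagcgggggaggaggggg
Jun: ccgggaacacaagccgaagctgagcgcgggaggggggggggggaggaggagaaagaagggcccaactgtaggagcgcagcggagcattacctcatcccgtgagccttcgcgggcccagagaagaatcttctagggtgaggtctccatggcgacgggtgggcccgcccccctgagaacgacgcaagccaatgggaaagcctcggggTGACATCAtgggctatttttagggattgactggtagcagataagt
Btg2: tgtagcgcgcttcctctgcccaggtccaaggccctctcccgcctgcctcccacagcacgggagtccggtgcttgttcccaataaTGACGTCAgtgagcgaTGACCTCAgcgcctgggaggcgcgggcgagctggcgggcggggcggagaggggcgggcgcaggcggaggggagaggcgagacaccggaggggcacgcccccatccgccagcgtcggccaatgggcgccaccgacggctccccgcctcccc
Atf3: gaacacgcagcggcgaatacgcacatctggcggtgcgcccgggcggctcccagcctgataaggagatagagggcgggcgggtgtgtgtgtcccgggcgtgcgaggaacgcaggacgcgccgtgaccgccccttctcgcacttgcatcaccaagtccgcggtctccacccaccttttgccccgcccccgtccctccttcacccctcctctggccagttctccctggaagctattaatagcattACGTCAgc
Fos: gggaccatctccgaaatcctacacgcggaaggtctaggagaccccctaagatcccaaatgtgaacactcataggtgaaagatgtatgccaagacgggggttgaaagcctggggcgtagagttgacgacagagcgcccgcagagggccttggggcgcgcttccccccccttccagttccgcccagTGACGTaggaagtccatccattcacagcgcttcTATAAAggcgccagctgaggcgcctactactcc
The windows are chr13:5861239-5861488 on the plus strand for Klf6, chr4:95052223-95052472 on the minus strand for Jun, chr1:134079156-134079405 on the minus strand for Btg2, chr1:191183334-191183583 on the minus strand for Atf3 and chr12:85473640-85473889 on the plus strand for Fos. The Atf3 start lies inside the GENCODE M21 gene, which spans chr1:191170296-191218039.

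Klf6 and Jun carried the same 8 letters, TGACATCA, at -119 to -112 in Klf6 and at -45 to -38 in Jun, counted from the last base before the start as -1. Btg2 held the full palindrome TGACGTCA at -166 to -159 and TGACCTCA at -150 to -143. Atf3 and Fos each held a half-site, at -8 to -3 on the opposite strand in Atf3 and at -66 to -61 in Fos, where a TATA box followed at -33 to -28. Over both strands of 32851 RefSeq windows outside chromosome 18 that also take in 50 bases after the start, TGACNTCA was found in 8.83%, TGACGTCA, which is part of it, in 1.79%, the half-site, which also lies within TGACGTCA, in 7.51%, and TATAAA in 13.6%. Neither TGACNTCA nor TGACGT occurred in the windows of Junb and Ier3. The AP-1 site TGANTCA was found in 7.81% of all windows and the CArG box bound by serum response factor in 1.63%. Neither had a match in the 7 member windows searched. Egr1, Ier2 and Myc were not among these, and sequence outside the windows was not searched. The motifs were chosen with the sequences in view, and a match is a string of letters, not a measured binding site. Atf3 matched only through the half-site, and Fos, shown for comparison, matched through it too. The share of all windows with either TGACNTCA or the half-site was not counted. Whether matches go with lower levels was not tested, and nothing is read from which members matched.

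Klf6, Jun, Btg2 and Atf3 were lower in RYGB livers than in Sham livers, and the same 4 genes were lower in WM livers than in Sham livers. Ier2 was higher in RYGB livers than in Sham livers. Fos itself, Junb, Egr1, Ier3 and Myc passed this test in neither comparison with Sham, though other settings, given with each gene, called Fos, Myc, Ier3 or Egr1 in 1 or both. Junb passed under none of the settings tried. At an adjusted p under 0.05 (edgeR quasi-likelihood test, Benjamini-Hochberg over all tested genes), 4 of 10 members were lower and 1 higher in RYGB, where 11.0% of all tested genes were lower and 12.7% higher. In WM, 4 of 10 were lower and 0 higher, with 15.0% of all genes lower and 16.5% higher. The members' median log2 fold change was -0.78 in RYGB against Sham and -1.12 in WM against Sham, while that of all tested genes was -0.01 in both. Both comparisons use the same Sham libraries, and the members were selected on them, so nothing is read from these counts.

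**Figure D1:**
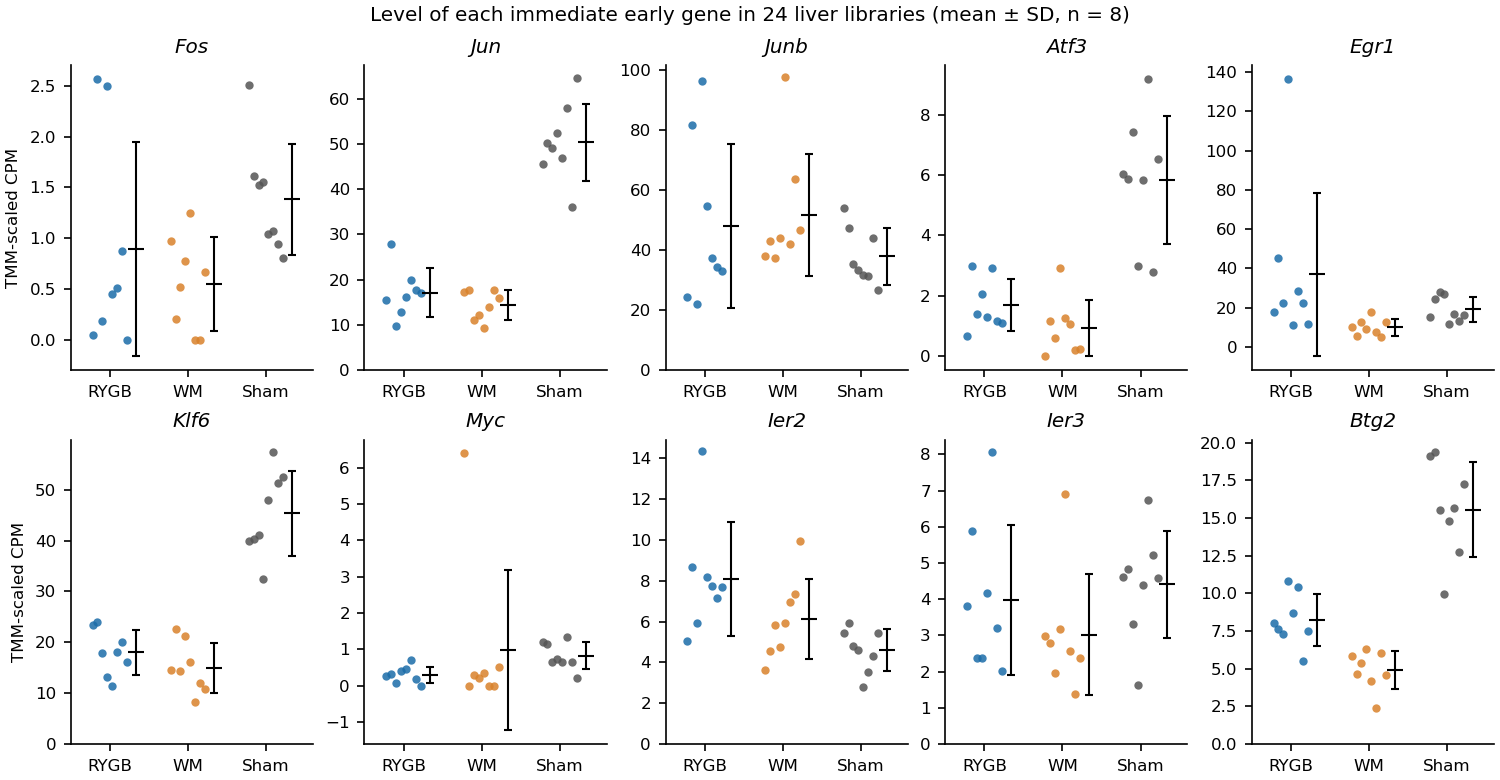
TMM-scaled CPM of the 10 genes, 1 panel a gene, with 1 point for each of the 8 RYGB, 8 WM and 8 Sham libraries and a bar for the mean ± SD. Klf6 and Jun show Sham points clear of both other groups, while Junb, Ier3 and Fos overlap and single libraries stand high in Egr1 (RYGB 18, 136.5 CPM) and Myc (WM 1, 6.40 CPM).

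Klf6, a Krüppel-like zinc finger factor induced early in injured liver and studied in stellate cells and hepatocytes, had 11.3 to 23.9 CPM in RYGB livers with a median of 18.0. WM livers had 8.32 to 22.6 CPM with a median of 14.4. Sham livers had 32.4 to 57.4 CPM with a median of 44.5. No RYGB or WM library reached the lowest Sham library, Sham 6, and RYGB and WM overlapped over most of their range. Klf6 was 2.52-fold lower in RYGB than in Sham (log2 fold change -1.33 ± 0.19 SE, adjusted p = 1.37e-05, edgeR) and 3.01-fold lower in WM than in Sham (-1.59 ± 0.20, adjusted p = 6.8e-07, edgeR). Its gene lies at chr13:5861482-5870394 on the plus strand (GRCm38, GENCODE M21) and overlaps no other annotated gene.

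Jun, the main DNA-binding partner in AP-1, had 9.81 to 28.0 CPM in RYGB livers (median 16.6), 9.26 to 17.8 CPM in WM livers (median 14.9) and 36.1 to 64.7 CPM in Sham livers (median 49.7). As with Klf6, the Sham libraries stood apart from both other groups, and the highest library outside Sham was RYGB 11. The difference was 2.95-fold lower in RYGB than in Sham (log2 fold change -1.56 ± 0.19 SE, adjusted p = 7.13e-07, edgeR) and 3.51-fold lower in WM than in Sham (-1.81 ± 0.19, adjusted p = 4.59e-08, edgeR). Klf6 and Jun were the 2 members whose RYGB libraries all lay below all Sham libraries, which held for 2.10% of all tested genes. The WM libraries of Klf6, Jun and Btg2 did so, which held for 2.68% of all tested genes. The Jun gene (chr4:95049034-95052222, minus strand) shares its place with the antisense gene Junos, which had 413 counts over all libraries and passed in neither comparison. The strand setting of the counting is not given in the sources used here, so reads of a gene and its antisense partner cannot be told apart.

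Junb, a Jun relative that binds the same sites and activates more weakly, gave 21.9 to 96.3 CPM in RYGB livers (median 35.8), 37.3 to 97.8 CPM in WM livers (median 43.6) and 26.5 to 54.1 CPM in Sham livers (median 34.3). The groups overlapped, with RYGB 18, RYGB 11 and WM 20 at 81.6 to 97.8 CPM and every other library at 63.8 CPM or less. The log2 fold change was 0.34 ± 0.27 SE in RYGB against Sham (adjusted p = 0.381, edgeR) and 0.44 ± 0.27 in WM against Sham (adjusted p = 0.210, edgeR). The first turns to -0.07 when library totals replace TMM, and to 0.06 without the 3 acinar libraries (adjusted p = 0.904). Junb (chr8:84974484-84978718, minus strand) overlaps Prdx2 on the opposite strand, a peroxiredoxin gene with 81389 counts that was itself higher in RYGB (log2 fold change 0.58 ± 0.14, adjusted p = 0.00315) and in WM (0.70 ± 0.14, adjusted p = 0.000383) than in Sham in the same fit. Its part in the Junb counts was not tested.

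With Jun called lower and Junb not called, the balance of the pair differed between groups. The ratio of Jun counts to Junb counts was 0.428 ± 0.162 in RYGB livers, 0.310 ± 0.107 in WM livers and 1.43 ± 0.546 in Sham livers (SD, n = 8 each). It ran from 0.134 to 0.639 in RYGB, from 0.0947 to 0.451 in WM and from 0.817 to 2.44 in Sham, so no RYGB or WM library reached the lowest Sham library. The ratio shows an unequal change of the 2 genes and, being built from selected members, carries no test. It uses raw counts, without correction for GC content or length.

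**Figure D2:**
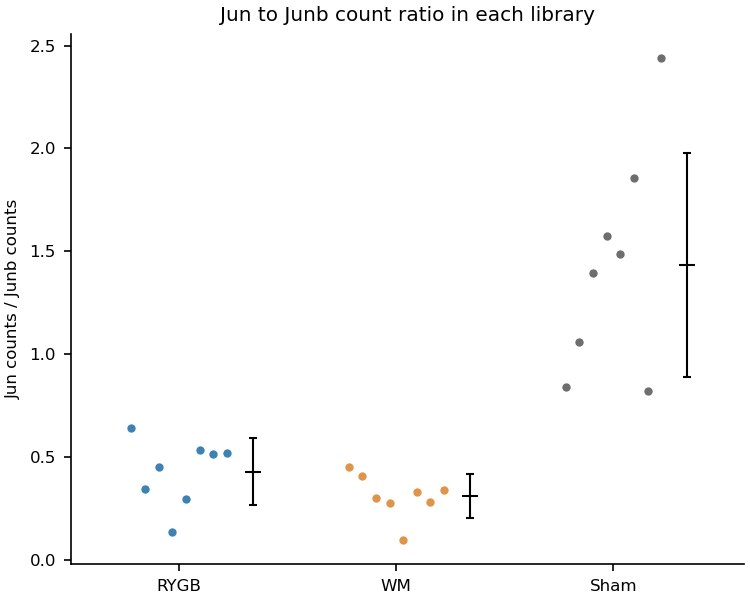
Ratio of Jun counts to Junb counts in each library, by group, with a bar for the mean ± SD (n = 8 each). All RYGB and WM libraries lie at or below 0.639 and all Sham libraries at or above 0.817.

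Fos, the AP-1 subunit that cannot pair with itself, was scarcely detected. RYGB livers had 0 to 2.56 CPM (median 0.478), WM livers 0 to 1.25 CPM (median 0.598) and Sham livers 0.810 to 2.50 CPM (median 1.30). Of the RYGB libraries, RYGB 11 at 2.56 CPM was the highest of all libraries, and RYGB 18 at 2.50 CPM stood level with the highest Sham library, Sham 2. The lowest Sham library lay above 5 RYGB libraries. RYGB 29, WM 25 and WM 27 had no Fos count, which allows up to 0.189, 0.227 and 0.208 CPM in these libraries (3 counts, counting error only). Neither the difference of RYGB from Sham (log2 fold change -0.65 ± 0.68 SE, adjusted p = 0.528, edgeR) nor that of WM from Sham (-1.31 ± 0.70, adjusted p = 0.154, edgeR) passed. The 95% interval of the first ran from -1.99 to 0.69. Its estimate stayed negative but moved with the setting, to -1.08 without the 3 acinar libraries, -1.09 without RYGB 18 alone, -1.07 with library totals, -1.48 under limma-trend (adjusted p = 0.133) and -2.16 under limma-voom (adjusted p = 0.00844). For WM against Sham limma-voom gave -1.77 (adjusted p = 0.0303), so Fos was called lower than Sham in both groups by limma-voom and in neither by the other tools.

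Atf3, a stress-induced bZIP factor that acts mostly as a repressor, had 0.646 to 2.98 CPM in RYGB livers (median 1.33), 0 to 2.93 CPM in WM livers (median 0.832) and 2.79 to 9.18 CPM in Sham livers (median 5.95). All RYGB and all WM libraries lay below the Sham median, but the highest of them, RYGB 11, RYGB 22 and WM 13, exceeded the lowest Sham library, Sham 17. The gene was 3.47-fold lower in RYGB (log2 fold change -1.79 ± 0.47 SE, adjusted p = 0.00563, edgeR) and 6.10-fold lower in WM (-2.61 ± 0.48, adjusted p = 0.000154, edgeR) than in Sham. WM 1 had no Atf3 count, which allows up to 0.243 CPM.

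Egr1, a zinc finger factor induced through MAP kinase and serum response factor, was, with Btg2, 1 of the 2 members called between RYGB and WM. It had 11.4 to 136.5 CPM in RYGB livers (median 22.4), 4.91 to 18.0 CPM in WM livers (median 9.64) and 11.8 to 28.0 CPM in Sham livers (median 16.4). RYGB 18 held 136.5 CPM, RYGB 11 held 45.1 CPM and the other 6 RYGB libraries 11.4 to 28.4 CPM, and 5 of 8 WM libraries lay below the lowest Sham library. Against Sham, the log2 fold change was 0.95 ± 0.39 SE in RYGB (adjusted p = 0.0744, edgeR) and -0.92 ± 0.39 in WM (adjusted p = 0.0734, edgeR). Without RYGB 18 alone these became 0.25 (adjusted p = 0.566) for RYGB and -0.92 (adjusted p = 0.0130) for WM, and without the 3 acinar libraries 0.31 (adjusted p = 0.521) and -0.98 (adjusted p = 0.0101).

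In WM, Egr1 was also called lower than Sham by DESeq2 (-0.93, adjusted p = 0.0463), limma-voom (-1.08, adjusted p = 0.0143), limma-trend (-0.97, adjusted p = 0.0397), library totals (-1.22, adjusted p = 0.0101) and a fit of WM and Sham alone (-0.92, adjusted p = 0.00928), and not by RLE scaling, either other filter or the GC and length correction. In RYGB, it was called higher than Sham by DESeq2 (0.95, adjusted p = 0.0473) and with the GC and length correction (1.00, adjusted p = 0.0408), while limma-voom gave 0.27 (adjusted p = 0.490) and limma-trend 0.51 (adjusted p = 0.323). The highest Egr1 of the RYGB group was in RYGB 18 and the lowest in RYGB 19, both acinar libraries, and the part of the acinar transcripts was not tested. The Egr1 gene is at chr18:34859823-34864984 on the plus strand.

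Myc, a growth-promoting bHLH factor that rises early in regenerating liver, lay near the limit of detection. RYGB livers had 0 to 0.699 CPM (median 0.300), WM livers 0 to 6.40 CPM (median 0.239) and Sham livers 0.216 to 1.33 CPM (median 0.701). A single library, WM 1, held 6.40 CPM, and the other 7 WM libraries at most 0.523 CPM. No difference from Sham passed in RYGB (log2 fold change -1.46 ± 0.86 SE, adjusted p = 0.225, edgeR) or in WM (0.19 ± 0.81, adjusted p = 0.880, edgeR). Leaving out WM 1 turned the second to -2.05 (adjusted p = 0.0269). DESeq2 and limma-voom, given all libraries, also called Myc lower in WM than in Sham (-1.93, adjusted p = 0.0112, and -2.05, adjusted p = 0.0356). DESeq2 ran with its default replacement of outlying counts, and limma-voom gave less weight to libraries of lower quality. How far these settings discounted WM 1 was not tested, and edgeR with RLE scaling gave 0.19 (adjusted p = 0.882). In RYGB against Sham, limma-voom gave -2.09 (adjusted p = 0.0243) and a fit of RYGB and Sham alone -1.46 (adjusted p = 0.0427). RYGB 29, WM 7, WM 25 and WM 27 had no Myc count, which allows 0.189 to 0.227 CPM.

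Ier2, a short intronless gene whose protein is a nuclear regulator of transcription, went the other way from Klf6 and Jun. RYGB livers had 5.06 to 14.3 CPM (median 7.73), WM livers 3.65 to 9.94 CPM (median 5.88) and Sham livers 2.82 to 5.92 CPM (median 4.69). All 8 RYGB libraries were above the Sham median, 6 of them above the highest Sham library, and RYGB 18 was the highest of all. Ier2 was 1.76-fold higher in RYGB than in Sham (log2 fold change 0.81 ± 0.22 SE, adjusted p = 0.00851, edgeR), and the 0.41 ± 0.22 of WM against Sham did not pass (adjusted p = 0.165, edgeR).

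The Ier2 call was lost without the 3 acinar libraries (0.60, adjusted p = 0.0831), with library totals in place of TMM (0.45, adjusted p = 0.120) and with a correction for GC content and length (0.54, adjusted p = 0.0759). Its longest transcript has 1522 bp and 60.9% GC, against medians of 3229 bp and 49.1% over all tested genes. Levels leaned on transcript length differently by group: the slope of log2 CPM, centred by gene, on log2 length was -0.148 to 0.023 in RYGB, -0.212 to 0.054 in WM and 0.093 to 0.241 in Sham libraries. A lower slope means relatively more counts on short genes. With the GC and length correction, Klf6 (4225 bp, 42.4% GC) moved to -1.11 in RYGB and -1.30 in WM against Sham, still called. Junb (1809 bp, 62.6% GC) moved to 0.05 and 0.18. Jun moved little (-1.54 and -1.77), and Atf3 (-1.93 and -2.86) and Btg2 (-0.96 and -1.69) moved away from 0. The cause of these shifts was not tested.

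Ier3, an anti-apoptotic stress gene, overlapped in all 3 groups. It had 2.02 to 8.07 CPM in RYGB livers (median 3.52), 1.38 to 6.89 CPM in WM livers (median 2.68) and 1.63 to 6.73 CPM in Sham livers (median 4.60). The log2 fold change was -0.15 ± 0.32 SE in RYGB against Sham (adjusted p = 0.773, edgeR) and -0.55 ± 0.32 in WM against Sham (adjusted p = 0.192, edgeR). In WM, 7 of 8 libraries were below the Sham median and WM 20 was above every Sham library. Leaving out WM 20 gave -0.84 (adjusted p = 0.0370), and Ier3 was also called lower in WM with the GC and length correction (-1.05, adjusted p = 0.0116), library totals (-0.93, adjusted p = 0.0291) and limma-voom (-0.78, adjusted p = 0.0431).

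Btg2, an antiproliferative adaptor that recruits the Ccr4-Not deadenylase to messenger RNAs, had medians graded over the 3 groups. RYGB livers had 5.50 to 10.8 CPM (median 7.82), WM livers 2.42 to 6.34 CPM (median 5.02) and Sham livers 9.94 to 19.4 CPM (median 15.6). The WM libraries all lay below the Sham libraries, and 6 of 8 RYGB libraries did. Btg2 was 1.89-fold lower in RYGB than in Sham (log2 fold change -0.92 ± 0.19 SE, adjusted p = 0.000702, edgeR) and 3.15-fold lower in WM than in Sham (-1.66 ± 0.19, adjusted p = 3.26e-07, edgeR).

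**Figure D3:**
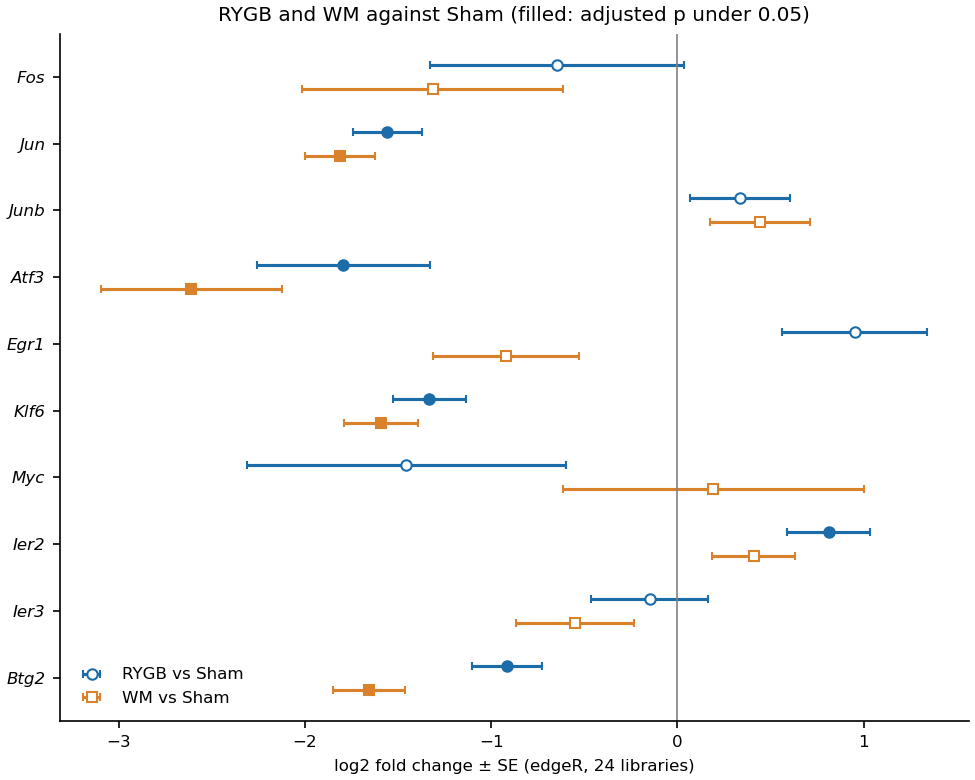
Log2 fold change ± SE from edgeR for each gene, RYGB against Sham above and WM against Sham beneath it, with filled marks where the adjusted p was under 0.05. Jun, Atf3, Klf6 and Btg2 lie below 0 in both comparisons, Ier2 is filled above 0 in RYGB, and Egr1 lies at 0.95 in RYGB and -0.92 in WM.

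Between RYGB and WM livers, which were matched in weight, Egr1 and Btg2 were higher in RYGB. These 2 of 10 members were called higher and 0 lower, where 1.06% of all tested genes were higher and 0.434% lower. The members' median log2 fold change was 0.40 and that of all tested genes -0.02. Egr1 was 3.67-fold higher in RYGB than in WM (log2 fold change 1.88 ± 0.40 SE, adjusted p = 0.00901, edgeR), with all 8 RYGB libraries above the WM median and 5 above the highest WM library, WM 20. Without the 3 acinar libraries it stood at 1.29 (adjusted p = 0.0148), and without RYGB 18 alone at 1.17 (adjusted p = 0.0328). Btg2 was 1.67-fold higher (0.74 ± 0.19, adjusted p = 0.0414, edgeR), and 7 of 8 RYGB libraries were above every WM library. That call was lost without the acinar libraries (0.65, adjusted p = 0.157), and leaving out single libraries gave an adjusted p between 0.0250 and 0.0895, with the highest without RYGB 18. Among these fits, it was lost on leaving out RYGB 10, 11, 15, 18, 19, 22 or 29, or WM 1, 7, 20 or 25.

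Klf6 and Jun did not differ between RYGB and WM beyond their spread: the log2 fold change was 0.26 for Klf6 with a 95% interval from -0.12 to 0.64, and 0.25 for Jun with an interval from -0.10 to 0.61. The other estimates were 0.82 for Atf3, 0.67 for Fos, 0.40 for Ier2, 0.40 for Ier3, -0.11 for Junb and -1.65 for Myc, none of them past the threshold. In order of group medians, WM was lowest and Sham highest for Klf6, Jun, Atf3 and Btg2, and of these 4 genes only Btg2 had a called difference between the neighbours RYGB and WM.

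The members fell into steadier and more variable genes when the spread within groups was pooled over the 3 groups. For each gene the SD of log2 CPM about the group means was ranked among the 500 tested genes of nearest mean level. Egr1 stood at percentile 95.4, Fos at 91.4, Atf3 at 86.6, Myc at 85.8 and Junb at 83.6. Ier3 was in the middle at 55.4, and Klf6 at 40.8, Jun at 31.6, Ier2 at 16.0 and Btg2 at 15.6 varied no more than the typical gene of their level. The high percentiles came with unequal spread between groups. In RYGB, WM and Sham, the SD was 1.16, 0.62 and 0.48 for Egr1 and 1.66, 1.40 and 0.49 for Fos. It was 0.70, 1.49 and 0.59 for Atf3, 0.91, 1.93 and 0.68 for Myc, and 0.78, 0.47 and 0.35 for Junb. The genes lower in both groups took in 3 of the steadier members and 1 of the variable ones, Atf3. The test between groups rests on the spread within groups, so a steadier gene passes it more easily. Nothing is read from this overlap.

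Whether the variable members moved together from library to library was asked inside each group, where the group differences play no part. Log2 CPM of the other 9 members was correlated with that of Fos over the 8 libraries of a group, giving 27 relations, and 0 passed adjustment (lowest adjusted p = 0.161 for Pearson and 0.155 for Spearman, exact permutation). Unadjusted, 8 had an exact permutation p under 0.05 by Pearson and 8 by Spearman. Egr1 followed Fos in RYGB (r = 0.78, exact permutation p = 0.0131; rho = 0.74, exact permutation p = 0.0458; 0.75 without RYGB 11 and RYGB 29, the 2 libraries farthest from the Fos median). It did so in WM (r = 0.81, exact permutation p = 0.0180; rho = 0.77, exact permutation p = 0.0324; 0.80 without WM 25 and WM 27). In Sham livers r was 0.40 (exact permutation p = 0.316; rho = 0.40, exact permutation p = 0.327) and 0.94 without Sham 23 and Sham 2, of which Sham 2 had the highest Fos of its group.

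Junb followed Fos in RYGB livers (r = 0.83, exact permutation p = 0.0143; rho = 0.79, exact permutation p = 0.0279; 0.86 without the farthest 2). Its r was 0.11 in WM (exact permutation p = 0.792; rho = 0.17, exact permutation p = 0.693) and 0.71 in Sham (exact permutation p = 0.0476; rho = 0.71, exact permutation p = 0.0576), where it fell to 0.18 without Sham 23 and Sham 2. Klf6 ran against Fos in Sham (r = -0.73, exact permutation p = 0.0399; rho = -0.79, exact permutation p = 0.0279; -0.84 without the farthest 2). In RYGB r was -0.04 (exact permutation p = 0.913; rho = 0.24, exact permutation p = 0.582). In WM r was 0.47 (exact permutation p = 0.242; rho = 0.46, exact permutation p = 0.258), and -0.39 without WM 25 and WM 27. With 0.161 as the lowest adjusted Pearson p, none of these relations passed correction for the 27 asked. In RYGB the 2 libraries with the highest Fos, RYGB 11 and RYGB 18, were also the 2 highest in Egr1, Junb and Ier2, and RYGB 18 is an acinar library. It stayed in the RYGB values without the farthest 2, so these do not show whether r rests on RYGB 18.

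**Figure D4:**
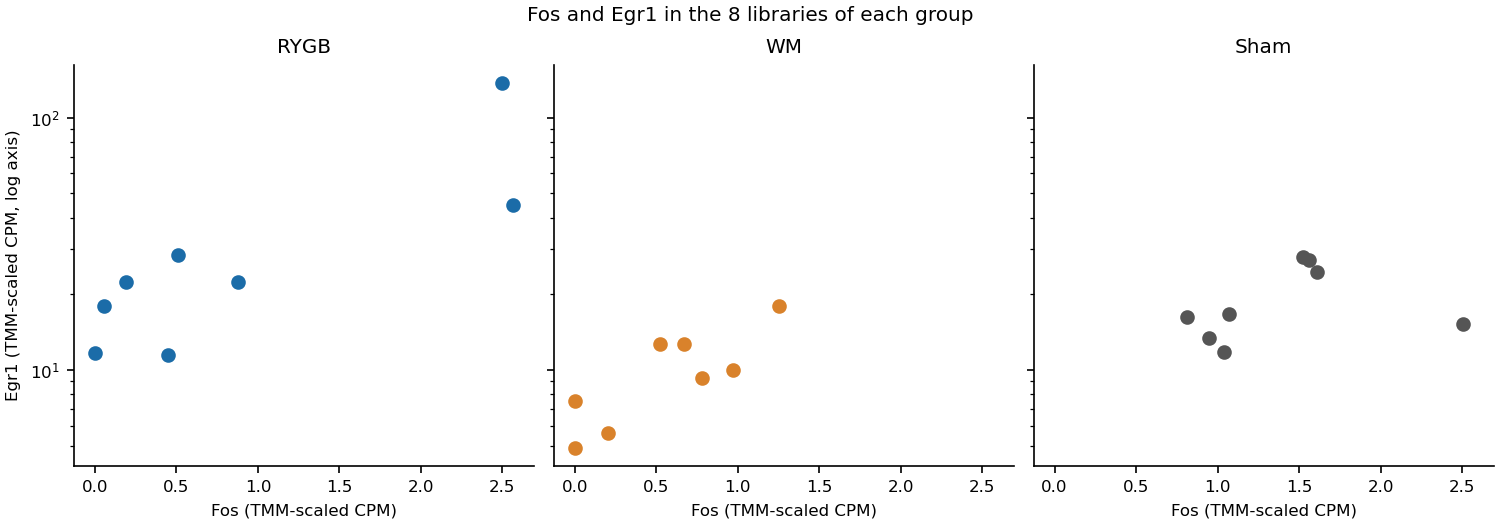
Egr1 (log axis) against Fos (linear axis), both in TMM-scaled CPM, with 1 point for each of the 8 libraries of RYGB, WM and Sham. Egr1 climbs with Fos in RYGB and WM (r = 0.78 and 0.81 on log2 values), and in Sham the library with the highest Fos, 2.50 CPM, lies low in Egr1.

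Genes whose library-to-library pattern was most like that of Fos or Klf6 were listed after the group means were taken off, over 24 libraries and 8101 genes with a mean of at least 5 CPM. For Fos, member Egr1 reached r = 0.74, Myc 0.60 and Junb 0.58. Outside the members, the ciliary gene Tbc1d32 had 0.72, the cyclophilin gene Ppia 0.72, the G protein gamma subunit gene Gng11 0.70, the RNA polymerase subunit gene Polr2h 0.69 and the proteoglycan gene Srgn 0.68. For Klf6 the closest were Pnrc1 (0.78), the elongation factor gene Tcea1 (0.74), the endosomal gene Rabep1 (0.74), Nras (0.74) and Ankrd49 (0.73). Of the members, Jun had r = 0.13 with Klf6, Ier3 0.43 and Ier2 -0.56. All these values share library depth and are given as descriptions. The genes outside the members were the highest of 8101 ranked, and how high the top r reaches by chance was not tested.

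Related genes came from lists written with earlier results of these data known. Their counts stand beside the shares over all tested genes, 11.0% lower and 12.7% higher in RYGB against Sham, 15.0% lower and 16.5% higher in WM against Sham, and 0.434% lower and 1.06% higher in RYGB against WM, and no list was tested as a whole. Among other immediate early transcription factors (11 tested), Nfil3, a circadian bZIP repressor, was higher in RYGB than in Sham (log2 fold change 1.20), and Bhlhe40 (-0.86) and Egr2 (-3.11) were lower. In WM, Jund (-1.42), the third Jun gene, and Nr4a2 (-1.12), an orphan nuclear receptor, were lower than in Sham and 0 were higher. Bhlhe40, a clock-linked repressor, was lower in RYGB than in WM (-0.92). The list's median was -0.31 in RYGB against Sham, 0.03 in WM against Sham and 0.23 in RYGB against WM.

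Other immediate early genes that are not transcription factors (26 tested) had 7 lower and 0 higher in RYGB against Sham, and 6 lower and 4 higher in WM against Sham. The cell cycle inhibitor Cdkn1a averaged 4.57 ± 2.06 CPM in RYGB and 40.8 ± 27.4 CPM in Sham (SD, n = 8 each; log2 fold change -3.15 ± 0.44 SE, adjusted p = 7.27e-06, edgeR). In WM it averaged 2.65 ± 1.95 CPM (-3.94 ± 0.46 against Sham, adjusted p = 3.32e-07, edgeR). The mRNA-decay factor Zfp36l2 (-1.07) and the ADP-ribosyltransferase Tiparp (-0.74) were lower in RYGB than in Sham. Tiparp (-0.86) and Zfp36l1 (-0.99) were lower and Phlda1 (1.50) was higher in WM than in Sham. Between RYGB and WM, Ier5 was higher in RYGB (0.76) and the stress gene Gadd45a (-1.11) and the clock gene Per1 (-1.38) were lower. The list's medians were -0.10 in RYGB against Sham, -0.25 in WM against Sham and -0.07 in RYGB against WM.

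Feedback inhibitors of MAP kinase signalling (16 tested), themselves often induced with immediate early genes, had 5 lower and 0 higher in each comparison with Sham, where 11.0% of all tested genes were lower in RYGB and 15.0% in WM, and 0 either way between RYGB and WM. They were led by the phosphatase genes Dusp3 (-0.91 in RYGB, -0.89 in WM), Dusp10 (-1.17 and -1.68), Dusp8 (-2.92 and -4.35) and Dusp5 (-2.18 and -2.33), each against Sham. Dusp8 averaged 0.275 ± 0.337 CPM in RYGB, 0.101 ± 0.152 CPM in WM and 2.15 ± 0.676 CPM in Sham (SD, n = 8 each). The list's median was -0.25 in RYGB against Sham, -0.46 in WM against Sham and 0.17 in RYGB against WM.

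The kinases and factors upstream of immediate early transcription (29 tested) had 2 higher and 3 lower in RYGB against Sham, and 4 higher and 3 lower in WM against Sham, each below the share over all tested genes. Egfr, the epidermal growth factor receptor, was higher in both (1.29 in RYGB, 2.08 in WM), and the kinase Braf lower in both (-0.61 and -1.05). Map2k3 (-0.45) and Mapk14 (0.46) passed in RYGB, and Hras (0.84) in WM. The medians were -0.27 and -0.14 against Sham and -0.06 in RYGB against WM, where 0 passed.

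Of the other Krüppel-like factors (12 tested), Klf7 was lower (-0.70 in RYGB, -0.48 in WM) and Klf2 higher (0.71 and 0.70) in both groups than in Sham. In WM, Klf1 (1.40) was also higher and Klf9 (-0.55) lower. The medians were -0.13 in RYGB and 0.05 in WM against Sham and 0 passed between RYGB and WM (median -0.16).

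Among bZIP factors that can pair with Fos, Jun or Atf3 (19 tested), 2 were higher and 4 lower in RYGB against Sham, and 2 higher and 7 lower in WM against Sham. Cebpd was higher (1.15 in RYGB, 1.36 in WM), and Cebpg (-1.07 and -0.83) and the endoplasmic reticulum stress sensor Atf6 (-0.58 and -0.72) were lower in both. Atf4 was higher in RYGB (0.40) and Ddit3 in WM (0.99), both factors of the integrated stress response. The medians were -0.23 and -0.20 against Sham and 0.01 in RYGB against WM, with 0 passing there.

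In the Myc network (11 tested), Mga was lower in RYGB (-0.61) and in WM (-0.58) than in Sham, Mycl was lower in WM (-1.13), and 0 were higher. The medians were -0.20 in RYGB and 0.20 in WM against Sham, and -0.32 in RYGB against WM with 0 passing. Of the Btg and Tob family, the Ccr4-Not deadenylase and the Nab corepressors of Egr factors (12 tested), the deadenylase Cnot8 was higher (0.60 in RYGB, 0.76 in WM) and Nab1 lower (-0.68 and -0.79) in both. Cnot6l (-0.53) and Btg1 (-1.46), the closest relative of Btg2, were lower in WM. The medians were -0.31 and -0.25 against Sham and 0.07 in RYGB against WM, where 0 passed.

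Heat shock and hypoxia genes (18 tested) respond to handling and lack of oxygen, among other signals. In RYGB 4 were higher and 0 lower than in Sham, among them Hspe1 (0.72), Hspa8 (0.70), Bnip3 (0.63) and Adm (1.60), and in WM 8 were higher and 0 lower. The inducible chaperone Hspa1b averaged 5.10 ± 2.10 CPM in RYGB, 36.9 ± 19.9 CPM in WM and 6.29 ± 10.8 CPM in Sham (SD, n = 8 each). It was higher in WM than in Sham (log2 fold change 2.55 ± 0.53 SE, adjusted p = 0.000536, edgeR) and lower in RYGB than in WM (-2.85 ± 0.54, adjusted p = 0.00310, edgeR). Dnajb1 showed the same pair of calls (1.30 and -0.89), and Pfkfb3 was lower in RYGB than in WM (-1.63). Hsph1 (1.22) and Hspa8 (0.96) were higher in WM than in Sham. The medians were 0.13 in RYGB and 0.68 in WM against Sham and -0.12 in RYGB against WM.

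Markers of the cells in the liver differed between the same groups, and their counts too stand beside the 11.0% of all tested genes lower and 12.7% higher in RYGB, and the 15.0% lower and 16.5% higher in WM. Summed over 8 genes, hepatocyte markers ran from 81145 to 137017 CPM in RYGB, 72111 to 128245 CPM in WM and 31973 to 74461 CPM in Sham, with 5 of 8 genes higher in each comparison with Sham. Kupffer cell and macrophage markers (11 genes) ran from 273 to 1127 CPM in RYGB, 287 to 964 CPM in WM and 116 to 469.8 CPM in Sham, with 9 higher in RYGB and 7 in WM. Sinusoidal endothelial markers (10 genes) ran from 140.0 to 354 CPM, 210.5 to 383 CPM and 58.2 to 279 CPM in RYGB, WM and Sham, with 4 and 7 higher. Stellate cell and fibroblast markers (10 genes), in whose cells Klf6 is also made, ran from 283 to 399 CPM in RYGB, 248 to 411 CPM in WM and 377 to 822 CPM in Sham, with 4 lower in RYGB and 5 in WM. In bulk RNA, fewer cells of a type and less RNA per cell cannot be told apart, and the part of these markers in the differences of Klf6, Jun, Atf3 and Btg2 was not tested.

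Cholangiocyte markers (6 genes) ran from 36.3 to 56.2 CPM in RYGB, 25.2 to 42.3 CPM in WM and 48.1 to 104 CPM in Sham, with 1 and 2 lower. Most of this sum came from Sox9 and Spp1 (medians of 20.5 and 16.8 CPM over the libraries). The median log2 fold change of the 6 genes was 0.07 in RYGB and -0.12 in WM against Sham. Lymphocyte markers (10 genes) had medians of 66.7 CPM in RYGB, 45.2 CPM in WM and 27.1 CPM in Sham, with 3 of 7 tested genes higher in each group. Erythrocyte markers (6 genes) had medians of 4029 CPM in RYGB, 3634 CPM in WM and 1435 CPM in Sham, with 2 and 5 of 5 tested higher. Neutrophil markers were low in all groups, with medians of 7.19 CPM in RYGB, 8.35 CPM in WM and 7.61 CPM in Sham over 5 genes, and 0 of 2 tested passed.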

How the data were processed

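RNA was measured in 24 mouse liver libraries, 8 a group. Per the labels' protocols, frozen liver was extracted with Trizol and RNeasy columns, and libraries were made with the QuantSeq 3′ kit and read for 50 bp in the forward direction. The authors deposited a table of raw counts per Ensembl gene and a table of normalized signal, the same counts divided by a size factor per library. Per the submitters' processing notes, R 4.1.2 and DESeq2 1.34 were used. For the aligner, counter, build, annotation and strand setting, versions and names were not given in the sources used here; deposited coordinates were not used. Gene positions came from GENCODE M21 and promoters from RefSeq, and windows of 7 of the 10 members were searched. Ier2 and Myc had no promoter entry, and Egr1 lies on chromosome 18, which was left out of the search.

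The fit used edgeR 4.0.16 under R 4.3.3 on the deposited counts (filterByExpr, TMM, quasi-likelihood F-test, all 24 libraries in 1 fit without covariates, common biological coefficient of variation 0.398). Calls have a Benjamini-Hochberg adjusted p under 0.05 over all 13121 tested genes, and an SE is the size of the log2 fold change divided by the square root of F. Correlations used log2 CPM with a prior count of 2 and exact two-sided permutation of pairings. Named genes were the 10 members, up to 4 called genes with the smallest p from each list in each comparison, and the 5 genes most like Fos and Klf6. Some genes taken by this rule are not reported here. The members, lists, tests and alternatives were chosen with earlier results of these data known, and the Jun to Junb ratio and the motifs were added after the values and sequences were seen. Alternatives were DESeq2 1.42.0, RLE scaling, library totals, no low-count filter, 1 CPM in 8 libraries, only the compared groups in the fit, limma-voom weighted by library quality, and limma-trend on log2 of the deposited signal plus 1 (limma 3.58.1), omission of the 3 acinar libraries, a GC and length correction (mgcv 1.9.3) and omission of each library. The fit was tested on simulated data. Floors of 3 counts cover counting error only.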

Additional observations from a re-analysis of the deposited data

Results flagged for a closer look

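Of the 30 sets of 8 libraries (10 genes in 3 groups), 7 held a library whose distance to its nearest neighbour was large for the range of its group. The distance was past Dixon's critical value for 8 libraries, which marks about 1 in 20 sets of normally distributed values. CPM were used without logs, and all 7 were the highest library of their set. How often chance marks such values was not tested. In RYGB, library 18 had 136.5 CPM of Egr1 where the others had 11.4 to 45.1, and 14.3 CPM of Ier2 where the others had 5.06 to 8.69. In WM, library 20 had 97.8 CPM of Junb where the others had 37.3 to 63.8, and 6.89 CPM of Ier3 where the others had 1.38 to 3.17. WM 13 had 2.93 CPM of Atf3, the other WM libraries 0 to 1.25. WM 1 had 6.40 CPM of Myc, the other WM libraries 0 to 0.523. Sham 2 had 2.50 CPM of Fos, the other Sham libraries 0.810 to 1.61. None of these was a Klf6, Jun or Btg2 value.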

How the results depend on the processing

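No paired analysis was possible because the groups share no replicate number. Klf6, Jun, Btg2 and Atf3 were called lower in RYGB and in WM than in Sham under every alternative and with each library left out, and Egr1 was called higher in RYGB than in WM under all of them. The count of called members was 5 for RYGB against Sham and 5 to 6 with single libraries left out, 4 under library totals and without the acinar libraries, 6 under DESeq2 and the compared groups alone, 7 under limma-voom and 5 otherwise. For WM against Sham it was 4, 4 to 6 with single libraries left out, 8 under limma-voom, 6 under DESeq2 and library totals, 5 under the compared groups alone, limma-trend, the GC and length correction and without the acinar libraries, and 4 otherwise. For RYGB against WM it was 2, and 1 under library totals, the compared groups alone, limma-voom and without the acinar libraries, and 1 to 2 with single libraries left out. In that comparison Btg2 was the call lost each time. The cause of these changes was not tested. Library totals moved the median of all genes to -0.36 in RYGB and -0.33 in WM against Sham. The number of Fos relations past adjustment was 0 under every alternative tried.

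The values that changed sign belonged to genes not called in the reported fit, and for Myc in WM against Sham 3 of them were called lower. Junb in RYGB against Sham was -0.0654 under library totals. Junb in RYGB against WM was 0.0008 without RYGB 15 and 0.0903 without WM 20 (-0.33 to 0.09 over single libraries). Myc in WM against Sham was -1.93 under DESeq2 (adjusted p = 0.0112), -0.21 under library totals, -2.05 under limma-voom (adjusted p = 0.0356), -1.56 under limma-trend and -2.05 without WM 1 (adjusted p = 0.0269; -2.05 to 0.39 over single libraries). Myc in RYGB against WM was 0.44 under DESeq2, 0.0486 under limma-trend and 0.59 without WM 1 (-1.96 to 0.59). Fos in RYGB against WM was -0.39 under limma-voom. Myc was not tested under the filter of 1 CPM. Depth limits Fos, Myc and Atf3, which had libraries with 0 counts.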
